A study of Mus musculus with 12 samples.

Results

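Messenger RNA decapping and mRNA storage depend on a small set of proteins, and 10 of their genes were followed here in mouse oocytes with and without Alkbh5. The 10 genes were Dcp2, Dcp1a, Dcp1b, Edc3, Edc4, Xrn1, Lsm14a, Lsm14b, Ddx6 and Patl2. They were taken by symbol from a count table of 56691 genes, and each symbol matched 1 identifier. The 12 libraries came from fully grown oocytes of juvenile, PMSG-primed females, stripped of cumulus cells, that were either wild type (WT) or Alkbh5 knockout (KO). The KO is a whole-body deletion of exon 1 with the start codon by CRISPR-Cas9, so the ovarian somatic cells lacked the gene too. Oocytes were taken at the germinal vesicle stage (GV), or after release from the phosphodiesterase inhibitor milrinone and culture at times named germinal vesicle breakdown (GVBD) and metaphase II (MII), with 2 libraries for each genotype and stage. Each library pooled several oocytes. KO oocytes often fail to break down the germinal vesicle or to release a polar body. The sources used here do not say whether the KO libraries labelled GVBD and MII hold oocytes selected for that stage or all oocytes at that time, so for KO these names are used as labels only.

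A eukaryotic mRNA is protected at its start by a cap. DCP2 is the enzyme that cuts the cap off, DCP1A or DCP1B is its obligate partner, EDC3 and EDC4 help the complex to assemble and act, and XRN1 then digests the uncapped RNA from its start. Growing oocytes do the opposite with much of their RNA: they keep it silent in ribonucleoprotein particles (mRNPs) built around the RNA helicase DDX6 with LSM14 and PATL proteins, until meiosis resumes and maternal mRNA is translated or cleared.

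Library totals ran from 28557742 to 40247810 counts, of which 221927 to 838409 came from the ERCC spike-in, a set of synthetic RNAs added to every tube. Alkbh5 had 5355 to 10181 counts in WT libraries and 54 to 143 in KO libraries. All 10 oocyte markers were detected in every library. The 11 cumulus and granulosa cell markers summed to between 41.3 and 87.2 counts per 1000000 endogenous counts (CPM). Amhr2 was at 0 throughout and Amh and Foxl2 at 5 counts or fewer. Others were detected in every library, among them Cyp19a1 at 577 to 2225 counts, Nr5a2 at 292 to 480, Kitl at 73 to 263 and Fshr at 17 to 221. The marker sum was 41.3 to 54.2 in WT and 50.2 to 87.2 in KO libraries, and its part in the results below was not tested. Endogenous counts per ERCC count were 98.9 and 105.0 in WT GV and 47.0 and 73.3 in WT MII libraries, against 111.0 and 128.0 in KO GV and 54.7 and 87.9 in KO MII libraries. Levels below are spike-in scaled counts, meaning counts divided by the library's ERCC total relative to the mean ERCC total. In pooled oocytes, fewer cells in a tube and less RNA per cell cannot be told apart on this scale. Shares are given as CPM, a scale that ignores the size of the pool.

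The 10 genes covered a wide range of levels. Divided by transcript length (spike-in scaled counts per kb of the longest complete coding transcript), the WT GV order was Lsm14a at 1044, Dcp1a at 815, Patl2 at 473, Lsm14b at 354, Edc4 at 233, Dcp2 at 142, Ddx6 at 100.4, Xrn1 at 58.6, Dcp1b at 13.8 and Edc3 at 3.82, each the mean of 2 libraries. In WT GV oocytes none of the 9 neighbouring pairs in this order overlapped in its libraries. In WT MII oocytes 6 of the 9 did: Dcp1a (1243) and Lsm14a (1191) could not be separated, and Lsm14b, Edc4, Dcp2 and Patl2 followed with overlapping libraries. Lsm14a and Dcp1a thus gave the highest levels per kb in WT GV and WT MII oocytes, while Dcp1b and Edc3 were the lowest in all 6 groups. The longest complete transcript was not shown to be the one the oocyte makes, so this order rests on the annotation.

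**Figure D1:**
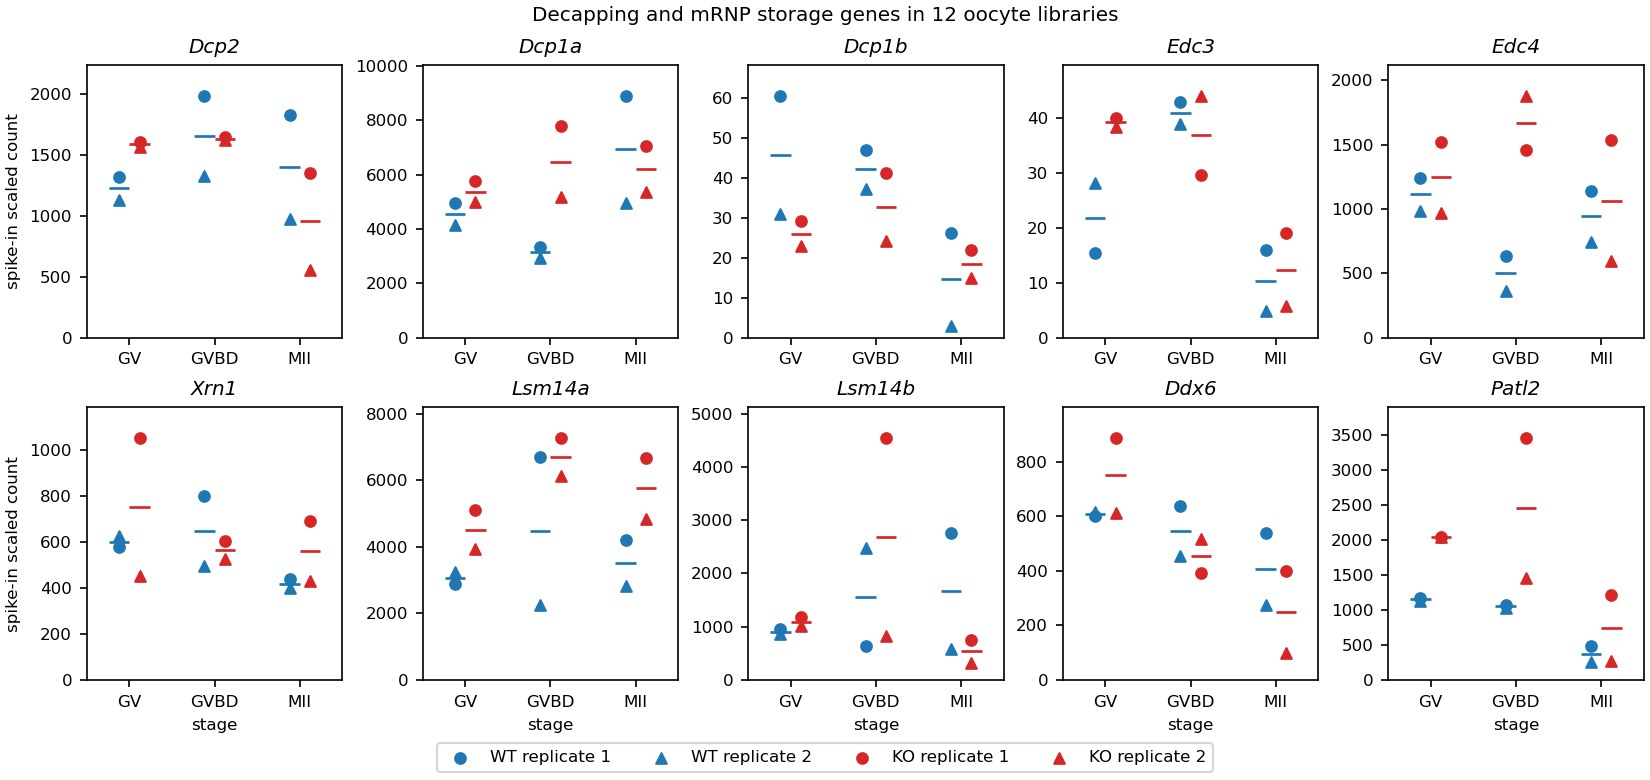
Spike-in scaled counts of the 10 genes (vertical axis, from 0, a separate scale for each gene) at GV, GVBD and MII in WT (blue) and KO (red) libraries; circles are replicate 1, triangles replicate 2, and bars the mean of the 2 libraries. Patl2 lies lower at MII than at GV in both genotypes, and the 2 replicates of Lsm14b stand far apart at GVBD in both genotypes and at MII in WT.

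Dcp2, the decapping enzyme, had WT spike-in scaled counts of 1319 and 1134 (GV), 1987 and 1327 (GVBD) and 1829 and 976 (MII). The KO counts were 1609 and 1569 (GV), 1649 and 1620 (GVBD) and 1355 and 560 (MII). WT MII and WT GV libraries overlapped. Both KO MII libraries lay below both KO GV libraries, as did those of 61.4% of all tested genes.

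Dcp1a (chr14:30479535-30527063, plus strand of GRCm38), which codes for the main DCP1 partner by count, gave WT spike-in scaled counts of 4944 and 4140 (GV), 3343 and 2950 (GVBD) and 8913 and 4952 (MII). KO oocytes gave 5768 and 4984 (GV), 7778 and 5192 (GVBD) and 7060 and 5364 (MII). In WT oocytes Dcp1a was therefore lowest at GVBD, without overlap with GV or MII. Both WT MII libraries lay above both WT GV libraries, but only just, with 4952 at MII against 4944 at GV. Of all tested genes 19.3% lay wholly lower at GVBD than at GV in WT, 3.54% wholly higher at MII than at GV and 5.61% wholly higher at MII than at GVBD. Its paralogue Dcp1b had only 6 to 51 raw counts in a library, and spike-in scaled counts of 61 and 31 in WT GV, 26 and 2.89 in WT MII, 29 and 23 in KO GV, and 22 and 15 in KO MII libraries.

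The 3′ end of Dcp1a is shown because it was the only one of the 10 genes with a cytoplasmic polyadenylation element of the form TTTTAT, written as DNA, in the last 150 bases of its main transcript. In oocytes such elements, bound by CPEB1 near the AATAAA signal that directs cleavage and polyadenylation, are known to let stored mRNAs regain poly(A) when meiosis resumes. Each sequence is given 5′ to 3′ on the transcript strand, from the GENCODE M21 transcripts of GRCm38, with TTTTAT in capitals, and lies in the 3′ UTR. The Dcp1a window is chr14:30526985-30527014 on the plus strand. For comparison, the TTTTAT nearest the transcript end is given for Xrn1 (chr9:96057635-96057664, plus strand), Lsm14a (chr7:34344848-34344877, minus strand) and Lsm14b (chr2:180034634-180034663, plus strand).
Dcp1a: tttcatcctaaaTTTTATatgtttgcaaat
Xrn1: ctccaagtgtatTTTTATgttgtacatttg
Lsm14a: cgctgactcctgTTTTATgtcaaaaagatg
Lsm14b: aatggaaccaaaTTTTATttggcacatgtg

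The capitalised element began 67 bases from the annotated end of the Dcp1a transcript, 157 in Xrn1, 220 in Lsm14a and 820 in Lsm14b. Dcp1a held 2 copies in its last 150 bases, besides 1 copy of the variant TTTTAAT and an AATAAA starting 39 bases from the end. Of 18663 main transcripts with a 3′ UTR of at least 150 bases, 18.4% held TTTTAT on the transcript strand in that window, 6.69% held TTTTAAT and 66.0% held AATAAA. Lsm14a had 1 TTTTAAT and 3 AATAAA there, and Edc4 and Patl2, with 3′ UTRs of 363 and 366 bases, had no TTTTAT at all. A match is only a run of letters, and which 3′ end the oocyte uses was not measured here.

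Edc3 was at the edge of detection, with 8 to 44 raw counts in a library. Its main exons overlap those of the antisense gene Clk3, which averaged 561 counts, and since no use of strand is stated its counts are uncertain. Edc4, the large scaffold that brings DCP1 and DCP2 together, was measured well. WT oocytes held spike-in scaled counts of 1245 and 987 (GV), 637 and 366 (GVBD) and 1141 and 747 (MII). KO oocytes held 1518 and 972 (GV), 1459 and 1882 (GVBD) and 1536 and 594 (MII). WT GVBD was thus the low point, below every other library but KO MII replicate 2, which at 594 lay between its 2 libraries.

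Xrn1, the exonuclease that follows decapping, had spike-in scaled counts between 400 and 1054 over the 12 libraries, the narrowest range of the 10 genes at 2.64-fold from lowest to highest. Both WT MII libraries (439 and 400) lay below both WT GV libraries (578 and 625), as in 58% of all tested genes. The KO libraries were 1054 and 453 at GV and 693 and 432 at MII, and these overlapped.

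Ddx6, the helicase at the core of storage particles, had WT spike-in scaled counts of 603 and 615 (GV), 640 and 455 (GVBD) and 541 and 274 (MII), and KO counts of 888 and 612 (GV), 391 and 516 (GVBD) and 398 and 98.8 (MII). KO MII replicate 2 was by far the lowest of the 12. Lsm14a, which binds DDX6 and represses translation, had WT counts on the same scale of 2889 and 3256 (GV), 6716 and 2262 (GVBD) and 4195 and 2816 (MII). KO libraries had 5121 and 3923 (GV), 7283 and 6121 (GVBD) and 6674 and 4845 (MII). These lay above both WT libraries at GV and at MII, as in 42.2% and 22.1% of all tested genes, while at GVBD WT replicate 1 lay between the KO libraries.

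Lsm14b, a paralogue of Lsm14a, stood out by replicates that lay far apart in 3 of the 6 groups, as they also did for Dcp1b in WT MII and for Ddx6 and Patl2 in KO MII. The GV libraries were close, at 953 and 864 in WT and 1185 and 1008 in KO. The GVBD libraries were not, at 632 and 2480 in WT and 4548 and 817 in KO, and neither were the WT MII libraries, at 2764 and 575. KO MII libraries had 756 and 322. Replicates differed 3.93-fold at GVBD in WT, 5.56-fold at GVBD in KO and 4.81-fold at MII in WT. In CPM the same pairs were 13.9 and 81.5, 93.1 and 20.5, and 93.4 and 30.3.

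Patl2, an oocyte-enriched mRNP protein gene on chr2:122120108-122186189 (minus strand), had WT spike-in scaled counts of 1168 and 1137 (GV), 1080 and 1029 (GVBD) and 492 and 259 (MII). The KO values were 2041 and 2049 (GV), 3466 and 1453 (GVBD) and 1220 and 275 (MII). Both KO libraries exceeded both WT libraries at GV and at GVBD, as in 42.2% and 30.3% of all tested genes. At MII the genotypes overlapped through KO replicate 2. B2m and Trim69 lie within the span of Patl2 on the other strand, with no shared exon.

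The first comparison asked how these genes changed from GV to MII, a step over which the median tested gene was lower at MII in both genotypes. In WT oocytes Patl2 fell by 1.62 on the log2 scale (SE 0.52, adjusted p = 0.00796 by edgeR's quasi-likelihood test with Benjamini-Hochberg adjustment over 18816 genes), and none of the other 9 genes passed. A gene was called at an adjusted p under 0.05 and at least 2-fold, and 30.9% of all tested genes were called in this comparison, 30.5% as lower. The 1 of 10 called stood below that share. DESeq2 called 1 of the 10 as well (29.3% of all), and 1 had an unadjusted p under 0.05 (39.1% of all). The median log2 fold change was −0.38 over the 10 genes and −1.06 over all tested genes, and 7 of the 10 lay above the all-gene median. Lsm14b (0.88 ± 0.50 SE), Dcp1a (0.61 ± 0.47), Dcp2 (0.19 ± 0.49) and Lsm14a (0.19 ± 0.47) had values above 0 without passing the test, at the 97.8th, 95.8th, 88.2nd and 88.1st percentile of all tested genes.

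The Patl2 call needed both WT GV libraries: its adjusted p was 0.302 without WT GV replicate 1 and 0.311 without replicate 2, 0.101 with all 12 libraries in the model, and from 0.00159 to 0.311 over all 12 alternatives, with a log2 fold change from −2.15 to −0.69. Without WT MII replicate 2, Lsm14b was called as higher as well (1.61, adjusted p = 0.0187, with 0.534% of all genes called as higher in that fit), whereas without WT MII replicate 1 its value was −0.66.

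Relative to the pool of RNA, the same libraries read differently. TMM scaling, which centres each library on its typical gene, moved the all-gene median from −1.06 to −0.14. On that scale Dcp1a (1.50, adjusted p = 0.00689), Lsm14a (1.12, adjusted p = 0.00796) and Dcp2 (1.07, adjusted p = 0.0176) were called as higher in WT MII, and Patl2 no longer passed (−0.73, adjusted p = 0.0515). These 3 of 10 compare with 8.47% of all tested genes called as higher under TMM. Edc4, Xrn1 and Ddx6 had values below 0 with the spike-in and above 0 with TMM, and passed on neither scale. The 10 genes together made up 321 and 325 CPM in the WT GV libraries and 579.5 and 687.6 CPM in the WT MII libraries. Dcp1a and Lsm14a made up most of each sum, so it does not describe each of the 10 genes. Patl2 was at 27.5 and 28.4 CPM in WT GV and 16.6 and 13.6 in WT MII libraries.

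In KO oocytes edgeR called none of the 10 genes from GV to MII (3.28% of all tested genes were called). None had an unadjusted p under 0.05 (24.6% of all), and DESeq2 called none (16.3% of all). Values were −1.66 ± 1.25 SE for Edc3, −1.59 ± 0.83 for Ddx6, −1.45 ± 0.77 for Patl2, −1.03 ± 0.70 for Lsm14b and −0.73 ± 0.67 for Dcp2, and the median was −0.61 beside −1.17 over all tested genes. Leaving out KO MII replicate 1, which leaves 1 library in that group, gave Patl2 a value of −2.89. That fit also called a far larger share of all tested genes as lower, so its calls say nothing particular of the 10 genes. Why the calls moved was not tested. The 10 genes summed to 347.7 and 373.2 CPM at GV and 555.8 and 566.4 CPM at MII. Dcp1a and Lsm14a made up most of each sum, so it does not describe each of the 10 genes. In KO Dcp1a was at 111.8 and 110.9 CPM at GV and 198.8 and 242.8 at MII. Lsm14a was at 99.3 and 87.3 at GV and 188.0 and 219.3 at MII, whereas Patl2 was at 39.6 and 45.6 at GV and 34.4 and 12.5 at MII.

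Whether the GV to MII change differed between genotypes was tested as an interaction. Of the 10 genes edgeR called 0 (0% of all tested genes), DESeq2 called 0 (0.721% of all) and 0 had an unadjusted p under 0.05 (5.75% of all). The largest of the 10 values was that of Lsm14b, −1.90 ± 0.98 SE (adjusted p = 0.949), and it was −0.36 without WT MII replicate 1. For Patl2 the difference was 0.17 ± 0.91 and for Dcp1a −0.40 ± 0.63, errors that leave room for differences of 2-fold.

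**Figure D2:**
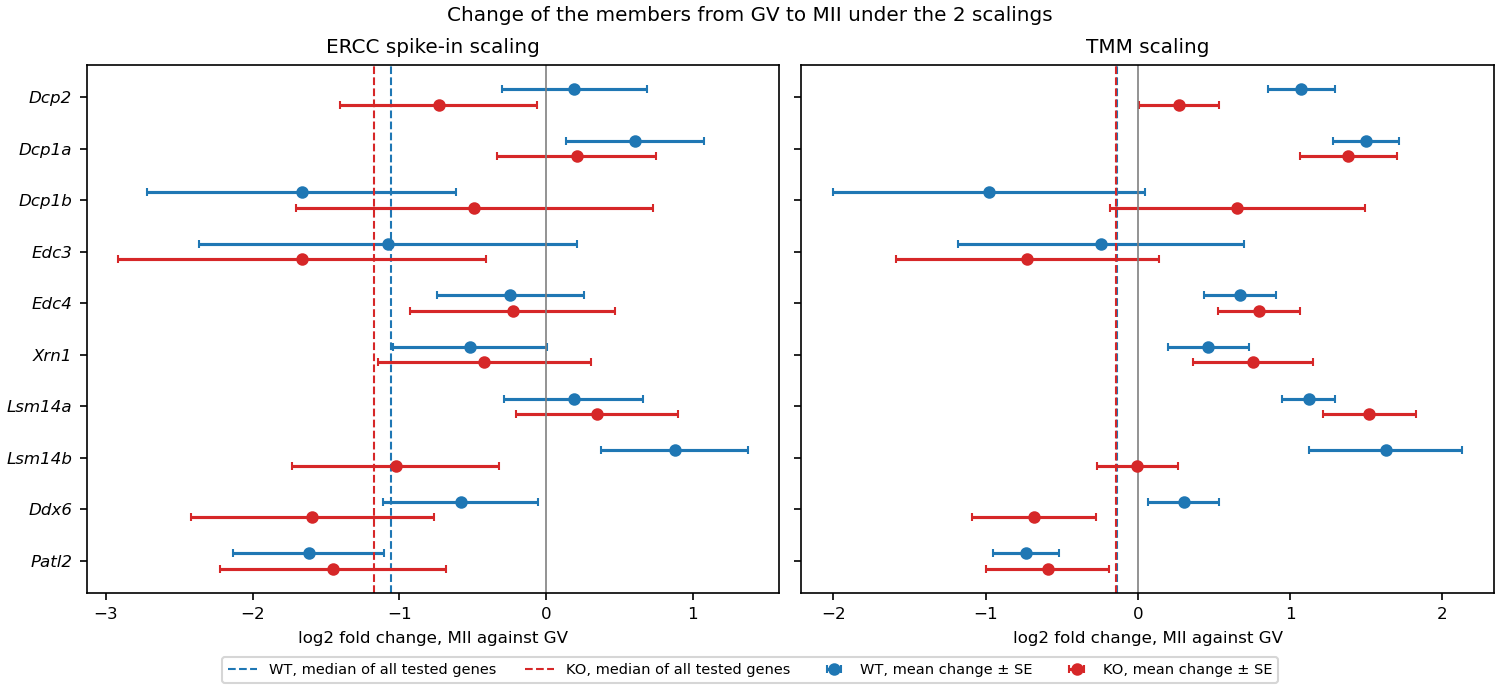
Log2 fold change from GV to MII (horizontal axis) of each of the 10 genes in WT (blue) and KO (red) oocytes, points with standard errors from edgeR, under spike-in scaling (left) and TMM scaling (right); dashed lines are the medians of all tested genes. With the spike-in 7 of 10 genes lie to the right of the all-gene median in each genotype, and Patl2 lies to its left.

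The steps on either side of GVBD were compared next. From GV to GVBD no gene of the 10 was called by edgeR in WT (0.0511% of all tested genes were) or in KO (0.22%), and DESeq2 called none in either (1.9% and 1.18% of all). In WT 1 gene had an unadjusted p under 0.05 (6.25% of all), Edc4, at −1.16 ± 0.44 SE (adjusted p = 0.653), and its value in KO was 0.42 ± 0.33. In KO none did (7.65% of all), but Lsm14b was called without KO GVBD replicate 2 (2.05, adjusted p = 6.6e-06, with 0.855% of all genes called as higher in that fit) and had a value of −0.42 without KO GVBD replicate 1.

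From GVBD to MII none of the 10 was called by edgeR in WT (27.8% of all tested genes were) or in KO (7.2%). At an unadjusted p under 0.05 there was 1 gene in WT, Patl2 (37.5% of all), and there were 2 in KO, Lsm14b and Patl2 (20.9% of all). DESeq2 called 1 in each (28.4% and 12.6% of all): Patl2 in WT (−1.49, adjusted p = 0.0229, beside 0.0961 by edgeR) and Lsm14b in KO (−2.32, adjusted p = 0.0387, beside 0.0883 by edgeR). Over its alternatives the adjusted p of Patl2 in WT ran from 0.0107 to 0.498 and that of Lsm14b in KO from 0.0387 to 1, the latter at −0.60 without KO GVBD replicate 1. Without KO MII replicate 1, 4 genes were called as lower in KO, where 32.4% of all tested genes were. Without WT MII replicate 1, Dcp1b was called as lower in WT, where 25% of all were. Relative to the pool, Dcp1a (2.03, adjusted p = 0.00371) and Edc4 (1.89, adjusted p = 0.00496) were called as higher in WT MII than in WT GVBD under TMM, where 9.9% of all tested genes were called as higher, whereas with the spike-in they had values of 1.14 ± 0.64 SE and 0.91 ± 0.69 SE without passing.

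The next comparison asked what loss of Alkbh5 did to these genes at each stage. No gene of the 10 was called by edgeR at GV (0.0977% of all tested genes were), GVBD (2.54%) or MII (0.803%), and DESeq2 called 0, 1 and 0 of them (3.48%, 4.63% and 1.97% of all). An unadjusted p under 0.05 was reached by Patl2 and Lsm14a in GV oocytes (17.9% of all), by Edc4 and Patl2 in GVBD oocytes (14.9% of all) and by none in MII oocytes (7.32% of all). The medians of the 10 were 0.31, 0.28 and 0.21 at the 3 stages, beside 0.36, 0.23 and 0.30 over all tested genes, so they stood near the rest of the transcriptome.

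For Patl2 the KO against WT value was 0.83 ± 0.19 SE for GV oocytes (adjusted p = 0.156). It was 1.22 ± 0.54 for GVBD oocytes (adjusted p = 0.288) and 0.99 ± 0.87 for MII oocytes (adjusted p = 1), and none of these passed. The GV value lay 0.47 above the all-gene median, and under TMM it was 0.49 (adjusted p = 0.341). DESeq2 gave an adjusted p of 0.00256 at GV for the same change, which is under 2-fold, and over all alternatives the adjusted p there ran from 0.00256 to 1. The MII value was −0.45 without KO MII replicate 1. On the spike-in scale 6 of the 10 genes, Patl2 among them, had both KO GV libraries above both WT GV libraries, and 42.2% of all tested genes did.

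Edc4 differed most at GVBD, where its WT level was low: 1.74 ± 0.54 SE higher in KO (adjusted p = 0.0969), at the 95.5th percentile of all tested genes and with no overlap of the libraries, as in 30.3% of all tested genes. It did not pass with edgeR, it passed with DESeq2 (adjusted p = 0.0126), and over 12 alternatives its value ran from 1.39 to 2.19 and its adjusted p from 0.0126 to 0.432. At GV its value was 0.16 ± 0.29 and at MII 0.17 ± 0.84. Dcp1a had 1.04 ± 0.51 at GVBD (adjusted p = 0.347), with values of 0.24 ± 0.18 at GV and −0.16 ± 0.74 at MII. Lsm14b had the lowest value at MII, −1.63 ± 0.86 (adjusted p = 0.723), which was −0.09 without WT MII replicate 1.

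**Figure D3:**
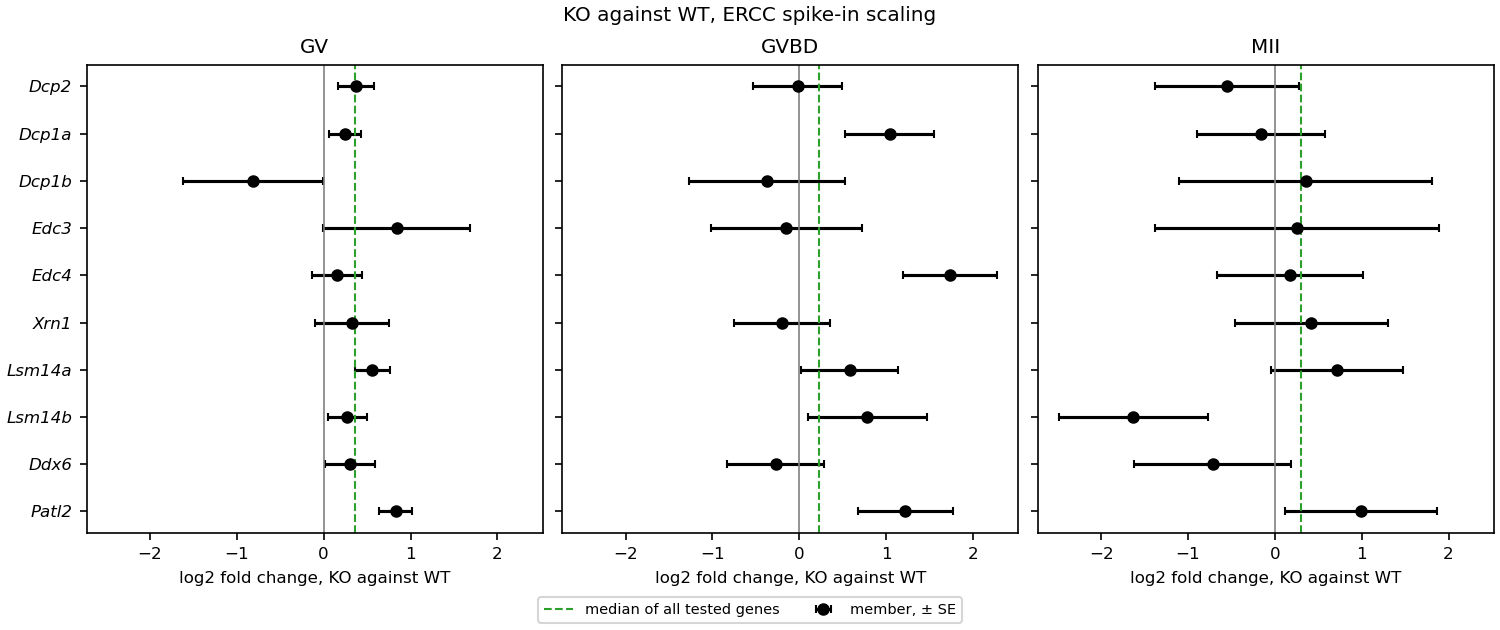
Log2 fold change of KO against WT (horizontal axis) for the 10 genes at GV, GVBD and MII, points with standard errors from edgeR under spike-in scaling; the dashed line is the median of all tested genes at that stage. Edc4 at GVBD, with 1.74, is the point farthest above 0, and no point passed the test.

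With stage as a covariate and 6 libraries of each genotype, none of the 10 was called by edgeR (1.26% of all tested genes were), DESeq2 called 1 (6.16% of all), and 2 had an unadjusted p under 0.05 (18.8% of all). Patl2 stood at 1.01 ± 0.34 SE (adjusted p = 0.141) and Lsm14a at 0.62 ± 0.26 (adjusted p = 0.223), beside 0.29 for the median of all tested genes. Patl2 passed with DESeq2 (adjusted p = 0.0372), without a filter on low counts (0.0351) and without KO MII replicate 2 (1.20, adjusted p = 0.031, with 3.32% of all genes called as higher in that fit), and its adjusted p over 19 alternatives ran from 0.031 to 0.362. Under TMM its value was 0.67 (adjusted p = 0.108). Dcp2 (−0.07 ± 0.28), Ddx6 (−0.23 ± 0.35), Lsm14b (−0.17 ± 0.57) and Dcp1b (−0.28 ± 0.58) had values below 0. Dcp1a, Edc3, Edc4 and Xrn1 had values from 0.18 to 0.68, and that of Xrn1 was −0.10 under TMM.

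Pairs of paralogues were also compared within libraries, where scaling has no part. The log2 ratio of Dcp1a to Dcp1b counts in WT was 6.34 and 7.03 (GV), 6.13 and 6.29 (GVBD) and 8.38 and 10.63 (MII), against 7.59 and 7.72, 7.54 and 7.71, and 8.29 and 8.44 in KO. It was higher at MII than at GV and GVBD in both genotypes, and its KO libraries exceeded the WT libraries at GV and GVBD but not at MII. The extreme MII ratio rests on 6 Dcp1b counts in WT MII replicate 2. Averaged over stages, KO minus WT was 0.41 (exact two-sided permutation of genotype within stage, 216 arrangements, p = 0.509, adjusted p = 0.509 over 3 ratios). The smallest p this design allows is 0.00926.

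Lsm14b to Lsm14a gave a KO minus WT difference of −0.84 (exact permutation p = 0.231, adjusted p = 0.509), made up of −0.28 (GV), −0.15 (GVBD) and −2.08 (MII). The ratio was −3.41 and 0.13 in WT GVBD and −2.90 and −0.68 in KO GVBD libraries, so at GVBD replicates of 1 group differed more than the genotypes did. At GV it was −1.60 and −1.91 in WT and −2.11 and −1.96 in KO. At MII it was −0.60 and −2.29 in WT and −3.14 and −3.91 in KO. The KO ratios thus lay below the WT ratios at GV and at MII, and single stages were not tested. Patl2 was compared with Patl1, its broadly expressed paralogue, which lay at 267 to 682 spike-in scaled counts. That ratio was 1.99 and 1.48 in WT GV and 0.43 and −0.04 in WT MII libraries, and 1.86 and 2.28 in KO GV and 0.84 and −0.55 in KO MII libraries. It was lower at MII in both genotypes without overlap, a difference that was not tested, and KO minus WT was 0.25 (exact permutation p = 0.444, adjusted p = 0.509).

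**Figure D4:**
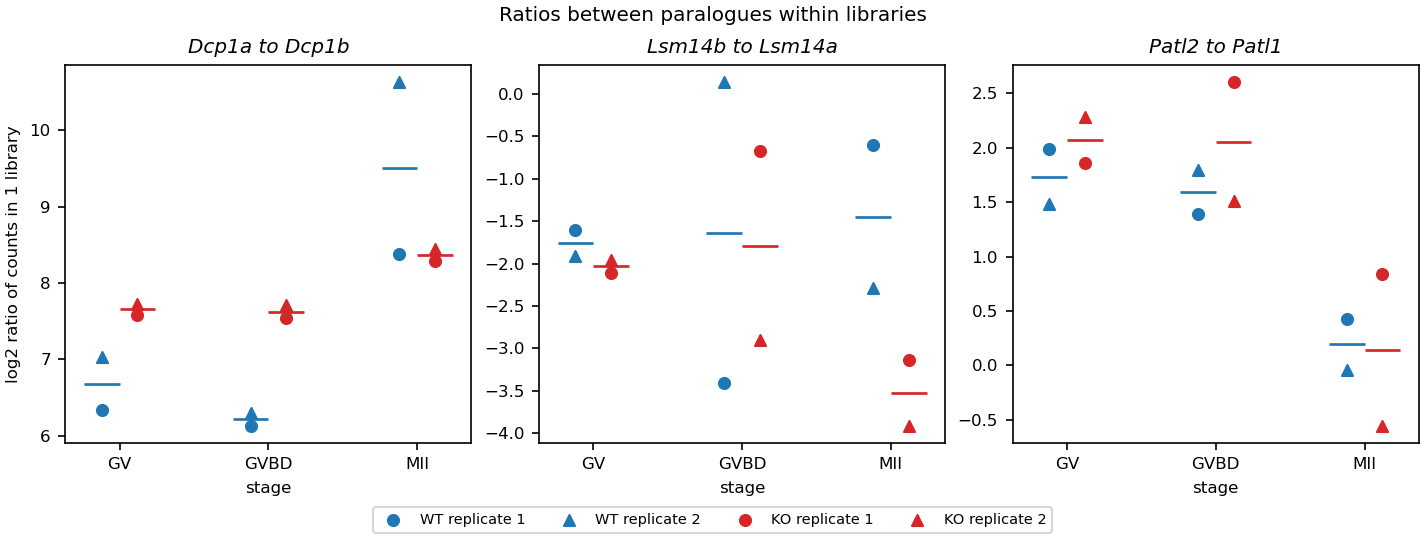
Log2 ratio of the counts of paralogous genes within each library (vertical axis) by stage; WT is blue, KO red, circles and triangles are replicates 1 and 2, and bars are means of 2 libraries. The Patl2 to Patl1 ratio is lower at MII than at GV in both genotypes, from 1.73 to 0.19 in WT and from 2.07 to 0.14 in KO.

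A further 21 genes of the same pathway were taken as companions: the LSM1 to LSM7 ring that prepares deadenylated mRNA for decapping, other cap-handling enzymes, and storage proteins such as YBX2, CPEB1 and ZAR1. From GV to MII 7 of the 21 were lower in WT and none was higher, beside 30.5% and 0.393% of all tested genes. Among them Zar1l (−4.82 ± 0.52 SE, adjusted p = 3.42e-18) and Ybx2 (−3.01 ± 0.54, adjusted p = 4.58e-07) code for mRNA storage proteins and Lsm3 (−3.33 ± 0.45, adjusted p = 6.98e-12) for a ring subunit, and the other called genes were Pnrc1, Dxo, Lsm6 and Lsm2. Under TMM scaling 4 companions were called as higher, Lsm1, Nudt16, Xrn2 and Ybx1, and 5 as lower, beside 8.47% and 16.2% of all tested genes. Lsm2 (adjusted p = 0.328) and Dxo (adjusted p = 0.0563) lost their calls on that scale, and median-of-ratios scaling gave the same counts of 4 and 5. In KO 3 of the 21 were lower, Lsm3, Zar1l and Pnrc1, beside 3.28% of all tested genes. This count was 1 without KO GV replicate 1 (0.196% of all) or replicate 2 (0.265%), and 11 without KO MII replicate 1 (53.9%). In WT the count was 4 without WT GV replicate 1 (14% of all) and 12 without WT MII replicate 1 (26%). The companions had a median of −1.06 in WT, that of all tested genes, beside −0.38 for the 10 genes, and the difference between the lists was not tested. From GVBD to MII 6 of the 21 were lower in WT and 0 higher, beside 27.1% of all tested genes as lower, and 2 were lower without WT GVBD replicate 1 (8.61% of all). TMM and median-of-ratios scaling each called 5 as higher and 5 as lower (9.9% and 15.7% of all under TMM), and the replicate block 1 as higher and 10 as lower. In KO 4 were lower (7.12% of all), 0 without KO MII replicate 2 (0.0552%) and 9 without KO MII replicate 1 (32.4%). For KO against WT edgeR called 0 companions at GV, at GVBD and at MII, where 4, 2 and 1 had an unadjusted p under 0.05 (17.9%, 14.9% and 7.32% of all) and DESeq2 called 2, 2 and 0 (3.48%, 4.63% and 1.97% of all). From GV to GVBD it called 0 in WT and 0 in KO, with 2 and 1 at that unadjusted p (6.25% and 7.65% of all) and 2 and 0 by DESeq2 (1.9% and 1.18% of all).

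Over all stages 1 companion was higher in KO, Lsm1, the subunit particular to the cytoplasmic ring, at 1.10 ± 0.22 SE (adjusted p = 0.0335 by edgeR). In this comparison 1.26% of all tested genes were called, and the median over all tested genes was 0.29. The Lsm1 spike-in scaled counts in WT were 744 and 936 (GV), 1148 and 794 (GVBD) and 1220 and 689 (MII), and 2147 and 1988, 1921 and 1746, and 2198 and 1874 in KO. Every Lsm1 value in KO thus exceeded every value in WT, and the share of all tested genes with such a separation was not counted. Under TMM the Lsm1 difference was 0.89 (adjusted p = 0.0118 by edgeR), below 2-fold. Median-of-ratios scaling gave 0.88 (adjusted p = 0.0147 by edgeR), also below 2-fold. Leaving out single libraries gave Lsm1 values from 1.01 (without WT MII replicate 2) to 1.22 (without WT MII replicate 1). The Lsm1 call was lost in most of these fits, so it depended on single libraries.

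The genes whose profile over the 12 libraries was most like that of a member were also listed, as a description. For Lsm14b they were Atg4b (Pearson r = 0.94 on log2 spike-in scaled counts), Agbl1 (0.87), Fer (0.87), Cgnl1 (0.85) and Lrrtm3 (0.85), out of 10834 genes ranked. For Patl2 they were Ap1m1 (0.99), Pdzk1 (0.99), Ilf2 (0.98), Dld (0.98) and Snd1 (0.98). The Lsm14b profile was thus followed closely only by Atg4b among the 5, and still at 0.94 on log2 CPM, where the others ran from 0.726 (Lrrtm3) to 0.863 (Agbl1). The 5 genes named for Patl2 were at 0.98 or above on the spike-in scale. On log2 CPM they ran from 0.918 (Snd1) to 0.976 (Pdzk1). All 12 points share depth, stage and spike-in scale.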

How the data were processed

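RNA was measured in 12 libraries of pooled mouse oocytes. The deposited table holds unnormalised read counts per gene, which the authors made from polyadenylated RNA by low-input full-length cDNA synthesis and PCR with ERCC spike-in, trimming with cutadapt 1.9, alignment to GRCm38 plus ERCC with HISAT2 2.0.4, unique reads only, and StringTie 1.3.4d (versions from the submitters' processing notes). Because cDNA was primed on poly(A), a count reflects polyadenylated transcripts. The labels' extraction text describes another, bulk protocol, so the cDNA steps follow the study's methods. The annotation release, the counting step and the use of strand are not given in the sources used here. Reads carry no molecular identifiers, so PCR copies cannot be told from molecules. For Edc3, Clk3 reads could be counted with it.

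Symbols were matched through GENCODE M21, as for 91.9% of the identifiers. All genes kept by filterByExpr were fitted with edgeR 4.0.16 (R 4.3.3), comparing only the groups named, with library sizes in proportion to ERCC counts. Alternatives were DESeq2 1.42.0, TMM and median-of-ratios scaling, other filters and ERCC sets, 1 model of all libraries, a replicate block, no minimum fold, and each library left out. Ratios used a pseudocount of 0.5. Nothing in the labels says that replicates came from separate animals, so p-values measure the spread between these samples, which may be technical. The 10 genes, the companions, the markers and the tests were chosen with earlier results of these data known. Named were all 10 genes, the companions called (at most 5 a comparison, by size of change, besides bare lists of symbols), Patl1, and the 5 genes most correlated with Lsm14b and Patl2 among those with a mean of at least 50 counts. Fits were tested on simulated counts, with the same dispersion for all genes and changes only in well-counted genes. That check does not cover low-count genes such as Dcp1b and Edc3, or replicates as far apart as those of Lsm14b.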

Additional observations from a re-analysis of the deposited data

How the results depend on the processing

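With 2 libraries a group, the number of the 10 genes called moved as follows. From GV to MII in WT, where 1 was called, TMM scaling and median-of-ratios scaling each called 3, the model of all 12 libraries called 0, and leaving out 1 library gave 0 to 2. From GV to MII in KO leaving out 1 library gave 0 to 5, against 0. From GV to GVBD in KO no filter gave 1 (Lsm14b) and leaving out 1 library 0 to 1, against 0. From GVBD to MII in WT, against 0, TMM and median-of-ratios scaling each called 2, a minimum of 10 counts in every library 1, DESeq2 1, the replicate block 2 (Dcp1a and Patl2), and leaving out 1 library 0 to 1. From GVBD to MII in KO, against 0, the 10-count minimum called 1, DESeq2 1, and leaving out 1 library 0 to 4. For KO against WT, DESeq2 called 1 at GVBD (Edc4), and over all stages no filter called 1, DESeq2 1 and leaving out 1 library 0 to 1, against 0. The share of all tested genes called moved between these fits too. The largest KO counts, from GV to MII and from GVBD to MII, came without KO MII replicate 1. A far larger share of all tested genes was called as lower in those fits than with all libraries. Those counts therefore say nothing particular of the 10 genes. Why the counts moved was not tested. The replicate block changed no other count. The same numbers only name replicates: same-numbered deviations correlated between −0.254 and 0.249. Crossing the numbers where this was under −0.1, an alternative chosen after seeing the data, called 0 in each of 3 comparisons. Paralogue ratios kept their sign and passed nowhere, with a pseudocount of 5, sign flips within replicate pairs (a replicate block, adjusted p = 0.562 for each) or any library left out. Of 110 log2 fold changes, TMM scaling turned the sign of 26 and median-of-ratios scaling of 27, the replicate block 2, and leaving out 1 library 66 of 560. The only value called in the main fits, that of Patl2 from GV to MII in WT, kept its direction under every alternative. Values called only in an alternative were less stable: that of Lsm14b ran from −0.66 to 1.67 from GV to MII in WT. From GV to GVBD in KO it ran from −0.42 to 2.05. Leaving out a library leaves a group of 1, which is then assumed to vary like the other groups. Counts of 6 to 51 for Dcp1b and 8 to 44 for Edc3 limit what can be seen of these 2 genes.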

Other observations

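GGACT, a common form of the sequence in which m6A is placed, the mark that ALKBH5 removes, was counted in the main transcripts as a description. It occurred 1.56 times per kb in Lsm14b, 1.23 in Patl2, 1.15 in Ddx6 and 1.05 in both Edc3 and Edc4, and 0.696 in Dcp2, 0.683 in Xrn1, 0.679 in Lsm14a, 0.604 in Dcp1b and 0.179 in Dcp1a. The median over 18663 transcripts was 1.02, with 5 of the 10 genes above it and 5 below. Lsm14b alone of the 10 held it in the last 150 bases, with 2 copies, as did 10.7% of all transcripts with at least 1. Methylation itself was not analysed here.

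Among pairs of the 10 genes, Dcp2 and Ddx6 had the most similar profiles over the 12 libraries (Pearson r = 0.85 on log2 spike-in scaled counts), which came to 0.54 on log2 counts per 1000000 endogenous counts. Dcp1a and Edc4, partners in the decapping complex, had 0.68 on the first scale and 0.67 on the second. Dcp1a had 0.10 and 0.30 with Dcp2, the enzyme it partners, and −0.26 and −0.71 with Edc3. All libraries share stage and depth, so these values are descriptive.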
